A study of Mus musculus with 4 samples.

Results

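The secretin family hormones Gcg, Gip and Sct were followed through 4 single-cell libraries of sorted mouse intestinal epithelial cells. The genes were taken by symbol, and they are 3 of the 31054 features in each matrix. The cells were chosen by a filter that does not use these genes, namely 500 or more detected genes with no more than 20% of UMIs (molecule tags that count captured RNAs) from mitochondrial genes, and 15800 of 22731 barcodes passed. By library the filter passed 4226 of 5216 barcodes at E12.5, 4602 of 5232 at E17.5, 3788 of 6287 in the adult library and 3184 of 5996 in the irradiated one. After removal of the cells most like doublets, 4050, 4409, 3597 and 3031 cells were kept.

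All mice carried Bmi1-GFP, a reporter at the locus of the Polycomb gene Bmi1, and the series text states that Bmi1-expressing cells were isolated by flow cytometry. The groups were embryos at E12.5, embryos at E17.5, adults, and adults that had been irradiated, with 1 library per group. The radiation dose, the interval before sampling, the ages of the adults, the number of animals and the sorting gates are not given in the sources used here. With 1 library per group no comparison could be tested, no p-value is given, and a difference between groups cannot be told apart from a difference between libraries.

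Gcg encodes proglucagon, which prohormone convertase 1 (Pcsk1) cuts into GLP-1 and GLP-2 in intestinal L cells and prohormone convertase 2 (Pcsk2) cuts into glucagon in pancreatic alpha cells. Gip encodes the incretin of K cells, which with GLP-1 raises insulin secretion after a meal. Sct encodes secretin, the hormone of S cells that drives bicarbonate release from the pancreas. The peptides act on related class B G protein-coupled receptors (Glp1r, Glp2r, Gcgr, Gipr, Sctr), and the peptidase Dpp4 shortens both incretins. In the adult gut the same enteroendocrine cell can hold several of these hormones.

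On the GRCm38 build Gcg lies at chr2:62474530-62483650 on the minus strand, with 6 exons in its longest coding transcript. Gip lies at chr11:96024545-96030831 on the plus strand, also with 6 exons. Sct is compact, at chr7:141278330-141279133 on the minus strand, with 4 exons. No other annotated gene overlaps any of them, and their transcripts share 0 stretches of 31 bases with transcripts of other genes.

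The promoters are shown because the 3 hormones were found in overlapping sets of cells while their proximal promoters are unlike in sequence. Each is the 250 bases before the RefSeq transcript start, read 5′ to 3′ along the gene's strand on GRCm38.p6, at chr2:62483654-62483903 for Gcg, chr11:96024295-96024544 for Gip and chr7:141279134-141279383 for Sct. Capitals mark matches on either strand to 5 motifs that were chosen with the sequences in view. These are the core promoter box TATAAA, the zinc finger factor motif GATAA, the helix-loop-helix factor motif CANNTG (E-box), the Sp factor motif GGGCGG and the homeobox core motif ATTA.
Gcg: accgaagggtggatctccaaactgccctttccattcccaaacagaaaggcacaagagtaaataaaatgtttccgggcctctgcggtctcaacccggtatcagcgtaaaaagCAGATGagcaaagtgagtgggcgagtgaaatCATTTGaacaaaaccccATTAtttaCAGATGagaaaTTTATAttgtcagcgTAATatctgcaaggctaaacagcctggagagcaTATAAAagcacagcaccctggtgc
Gip: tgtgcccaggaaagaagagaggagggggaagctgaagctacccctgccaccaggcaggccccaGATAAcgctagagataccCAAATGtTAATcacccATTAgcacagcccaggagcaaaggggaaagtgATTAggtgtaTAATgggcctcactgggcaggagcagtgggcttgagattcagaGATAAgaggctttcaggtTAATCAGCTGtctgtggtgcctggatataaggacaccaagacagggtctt
Sct: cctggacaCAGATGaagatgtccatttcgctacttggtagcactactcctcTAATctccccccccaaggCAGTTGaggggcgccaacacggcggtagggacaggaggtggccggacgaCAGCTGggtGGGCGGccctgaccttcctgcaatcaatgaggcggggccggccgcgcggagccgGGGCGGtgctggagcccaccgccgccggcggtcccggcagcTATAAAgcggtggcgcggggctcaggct

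The GC content was 44.8% for the Gcg promoter, 52.0% for Gip and 68.0% for Sct, against a median of 52.4% over 32851 RefSeq mouse promoters of the same length. The Sct promoter held 22 CG dinucleotides, Gcg 7 and Gip 1, where the median promoter holds 6. Counted back from the start, TATAAA was found at -24 in Gcg and at -28 in Sct, with a second match on the other strand at -72 in Gcg and none in Gip. GATAA was found in Gip only among the 3, at -187 and -68, and GGGCGG in Sct only, at -123 and -69. E-boxes were found in all 3 promoters (3, 2 and 3 matches in Gcg, Gip and Sct), and ATTA in all 3 as well (2, 5 and 1). Of all promoters, 12.4% hold TATAAA, 22.6% GATAA, 66.2% an E-box, 32.7% GGGCGG and 54.9% ATTA. No matches of different motifs overlapped. A match is a description of these letters and says nothing of binding.

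The levels below are UMIs of the gene per 1000000 UMIs of the same cells (CPM), with exact Poisson 95% intervals that cover counting error only. A 3′ library gives about 1 UMI per captured molecule whatever the transcript length, so CPM was not divided by length. In all kept cells Gcg measured 39.5 CPM at E12.5 (38.2 to 40.9), 1659 at E17.5, 1548 in the adult library and 3731 in the irradiated one. Gip measured 0.377 CPM at E12.5 (0.256 to 0.535), 2015 at E17.5, 33221 in the adult library and 18775 in the irradiated one. Sct measured 29.8 CPM at E12.5 (28.6 to 31.01), 9194 at E17.5, 18809.5 in the adult library and 22399 in the irradiated one. The order was therefore irradiated adult, E17.5, adult, E12.5 for Gcg, adult, irradiated adult, E17.5, E12.5 for Gip, and irradiated adult, adult, E17.5, E12.5 for Sct, and no neighbours in an order had overlapping intervals. The spread between animals is unknown, so neighbours as close as E17.5 and adult for Gcg cannot be said to differ between the stages.

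Clustering within each library, done without the 3 genes, gave enteroendocrine-like clusters (named from granule and transcription factor genes such as Chga, Chgb, Neurod1 and Pax6, with no hormone among the markers) in 3 of 4 libraries: 1196 cells at E17.5, 2222 in the adult library and 1890 in the irradiated one. No E12.5 cluster kept this name. A cluster of 144 E12.5 cells passed the endocrine score with 4 markers. It was left unnamed because its depth was low and no marker was among its top 10 genes. The enteroendocrine-like cells held 69.7%, 88.7% and 93.9% of the Gcg UMIs of their libraries, in the order E17.5, adult, irradiated adult. In the same order they held 97.4%, 96.0% and 95.2% of the Gip UMIs, and 96.9%, 96.5% and 90.1% of the Sct UMIs. Median depth in the class was 7690.5, 3191 and 9565 UMIs per cell. In the irradiated library 592 cells (19.5%) stayed in 4 unnamed clusters, 3 of which had endocrine leading genes, and the 592 cells held 7.34% of the Sct UMIs at 17946 CPM.

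**Figure D1:**
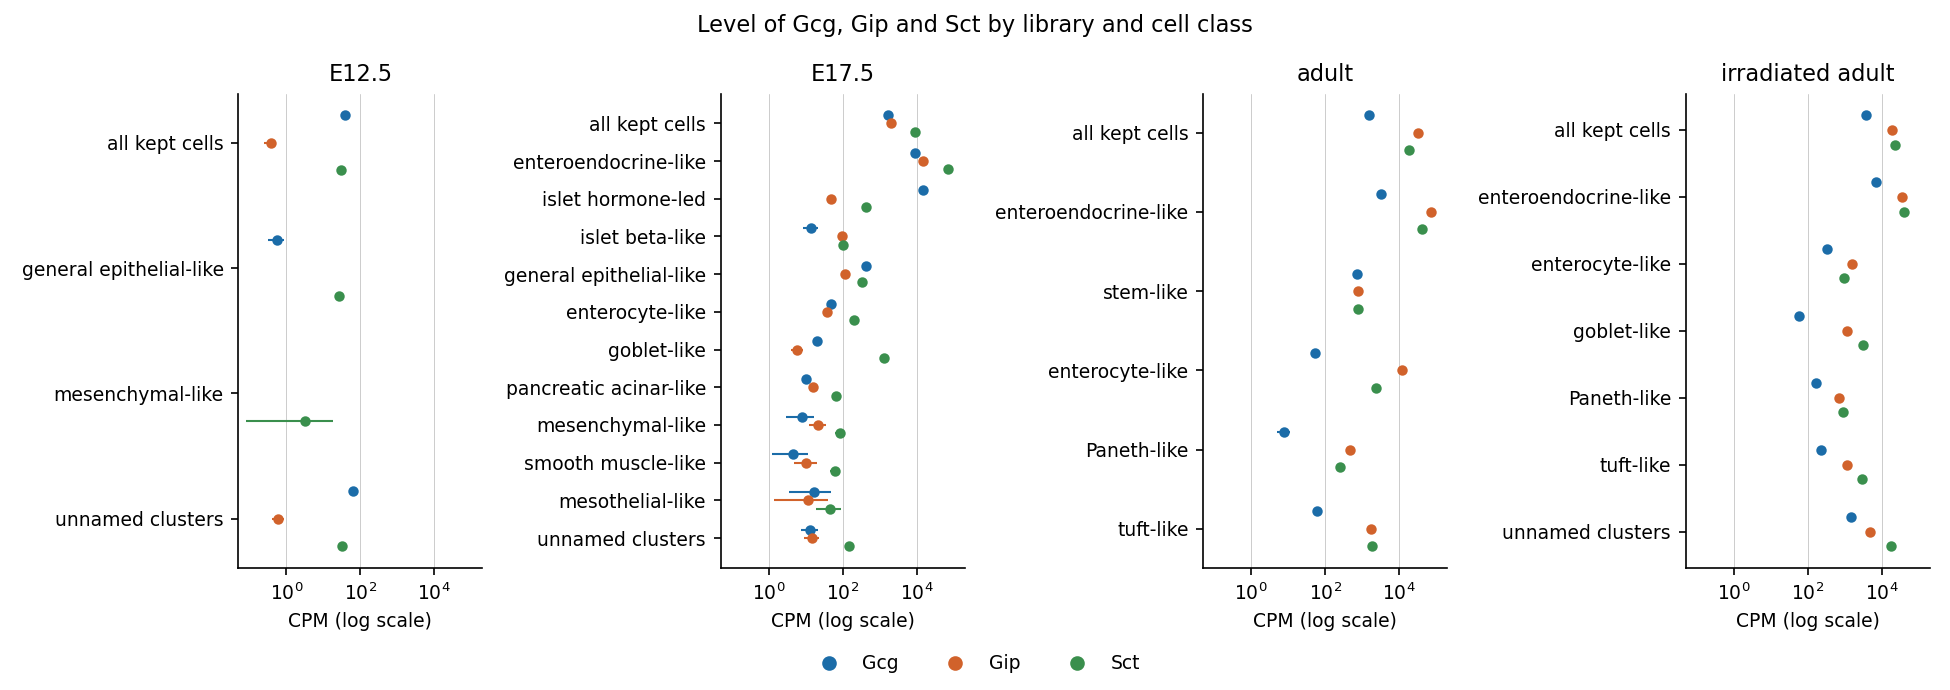
Level of Gcg, Gip and Sct (CPM, log scale) in each library, for all kept cells and for each cell class; points are summed UMIs, bars are exact Poisson 95% intervals, and a class with 0 UMIs of a gene has no point. Enteroendocrine-like cells hold the highest level of Gip and Sct in the 3 libraries that have them, and at E17.5 the islet hormone-led cells hold more Gcg, at 15149.7 CPM against 8913.

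From E12.5 to E17.5 all 3 genes were higher, in a comparison in which 15.9% of 14506 genes were at least 2-fold higher and 16.4% at least 2-fold lower. Log2 ratios of CPM + 1 were 5.36 for Gcg, 8.22 for Sct and 10.52 for Gip, against a median of -0.19 over all genes. The Gcg ratio rests on 8 E12.5 cells that held 98.1% of the Gcg UMIs of that library. Without them Gcg measured 0.767 CPM at E12.5, against 1659 at E17.5, so the ratios do not rank the 3 genes. Of the E17.5 Gcg UMIs 21.1% lay in islet hormone-led cells. The Gip ratio rests on 31 UMIs at E12.5 and on the added 1 CPM, and the counts themselves give a log2 ratio between 11.88 and 12.94. The processing and granule genes were higher for 11 of 11 tested, among them Chga (1.83 CPM at E12.5 and 444 at E17.5), the granule protein of endocrine cells, and Pcsk1 (0.535 and 61.6 CPM). The other hormones, which include the islet genes Ins1, Ins2, Iapp and Ppy, were higher for 13 of 13. Of 21 endocrine transcription factors 13 were higher and 2 lower. The E17.5 sums take in 1196 enteroendocrine-like, 266 islet hormone-led and 137 islet beta-like cells, and no E12.5 cluster held such a name. More such cells and more RNA per cell cannot be told apart in these sums.

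Between E17.5 and the adult the answer depended on the cells taken. In all kept cells Gip was higher in the adult with a log2 ratio of 4.04, Sct was higher at 1.03, and Gcg stood at -0.10 (0.57 with the stricter cell filter of 1000 genes and 10% mitochondrial UMIs), where 14.1% of 13994 genes were at least 2-fold higher and 15.8% lower. The share of enteroendocrine-like cells was itself 27.1% at E17.5 and 61.8% in the adult. Within these cells Gcg measured 8913 CPM at E17.5 and 3200 in the adult, Gip 15120.5 and 74353, and Sct 68682 and 42332. The log2 ratios were -1.48 for Gcg, 2.30 for Gip and -0.70 for Sct, where 12.3% of 11129 genes were at least 2-fold higher and 7.26% lower. Gip was alone of the 3 in being higher per endocrine UMI in the adult. Of 13 other hormones 9 were at least 2-fold lower in the adult cells, such as Pyy (5649 CPM at E17.5 and 549.6 in the adult), Nts and Ghrl, and only Tph1, which makes serotonin, was higher (543 and 1675 CPM).

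Gcg was higher and Gip lower in the irradiated than in the unirradiated adult library, both in all kept cells, where Gip stayed within 2-fold, and in the endocrine class. In all kept cells the log2 ratios of irradiated over adult were 1.27 for Gcg, -0.82 for Gip and 0.25 for Sct, where 3.05% of 12813 genes were at least 2-fold higher and 5.35% lower. In the enteroendocrine-like cells Gcg measured 7078 CPM after irradiation against 3200, Gip 36098 against 74353, and Sct 40762 against 42332. The log2 ratios were 1.14, -1.04 and -0.05, where 1.59% of 11515 genes were at least 2-fold higher and 2.63% lower, and the Gcg ratio stood at percentile 98.8 of these genes and Gip at 2.27. Both lie close to the 2-fold line: Gcg was 0.93 with a stricter cell filter and Gip -0.77 as a mean of each cell's CPM, and the Sct ratio took either sign over the alternatives. The irradiated class also leaves out the 592 unnamed cells, while every adult cluster took a name. In those 592 cells 12 of 14 endocrine markers reached 50 CPM, with Gcg at 1527 and Gip at 4965 CPM. So did 7 of 10 tuft markers, against 0 of 10 in the irradiated enteroendocrine-like class, and the median depth was 1985 UMIs. Among the other hormones Tac1, the substance P precursor, was higher at 843 against 107 CPM, and 0 of 9 were 2-fold lower. Of the processing and granule genes 0 of 11 passed 2-fold in either direction.

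In a summed level, more cells with a hormone and more of it per cell cannot be told apart, so each cell was thinned to 2000 UMIs (shallower cells left out) and called high with at least 10 UMIs of a hormone. This left 1163 enteroendocrine-like cells at E17.5, 1737 in the adult library and 1769 in the irradiated one. The loss was uneven, with 33 of 1196, 485 of 2222 and 121 of 1890 cells left out, so the adult shares cover less of their class. Shares carry exact Clopper-Pearson 95% intervals.

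Gcg-high cells made up 12.98% (11.1 to 15.1) of the E17.5 enteroendocrine-like cells, 4.09% (3.21 to 5.13) in the adult library and 8.88% (7.59 to 10.3) in the irradiated one. Their median Gcg content was 83, 38 and 89 UMIs of 2000. Both the share and the content per cell were thus lowest in the adult library. The adult figure rests on 71 cells, and the most loaded of them held 426 of 2000 UMIs as Gcg.

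Gip-high cells made up 16.7% (14.6 to 18.95) at E17.5, 46.6% (44.3 to 49.0) in the adult library and 22.4% (20.5 to 24.4) in the irradiated one. The median content was 131.5, 319.5 and 380 UMIs of 2000. The irradiated library therefore had a smaller share of Gip-high cells than the adult while the median content of its Gip-high cells was not lower. With a stricter cell filter (1000 genes, 10% mitochondrial UMIs) the irradiated share was 13.9%. At the top, 1 adult cell gave 1147 of its 2000 UMIs to Gip.

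Sct was the most widespread of the 3, and 94.8% (93.4 to 96.0), 75.8% (73.7 to 77.8) and 67.2% (65.0 to 69.4) of the cells were Sct-high. The median content was 104, 40 and 31 UMIs of 2000. These shares depend on where high begins, since 34.4% of the adult and 32.9% of the irradiated cells held between 5 and 19 Sct UMIs. With at least 30 UMIs the shares were 82.1%, 45.7% and 35.0%, in the same order. For Gcg 5.42%, 3.22% and 4.80% of cells lay between 5 and 19 UMIs, and with at least 30 UMIs its shares were 10.1%, 2.48% and 6.05%. In the adult that left 43 of the 71 Gcg-high cells. For Gip 4.64%, 18.1% and 7.86% lay between 5 and 19 UMIs, and 13.4%, 42.7% and 21.03% held at least 30.

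**Figure D2:**
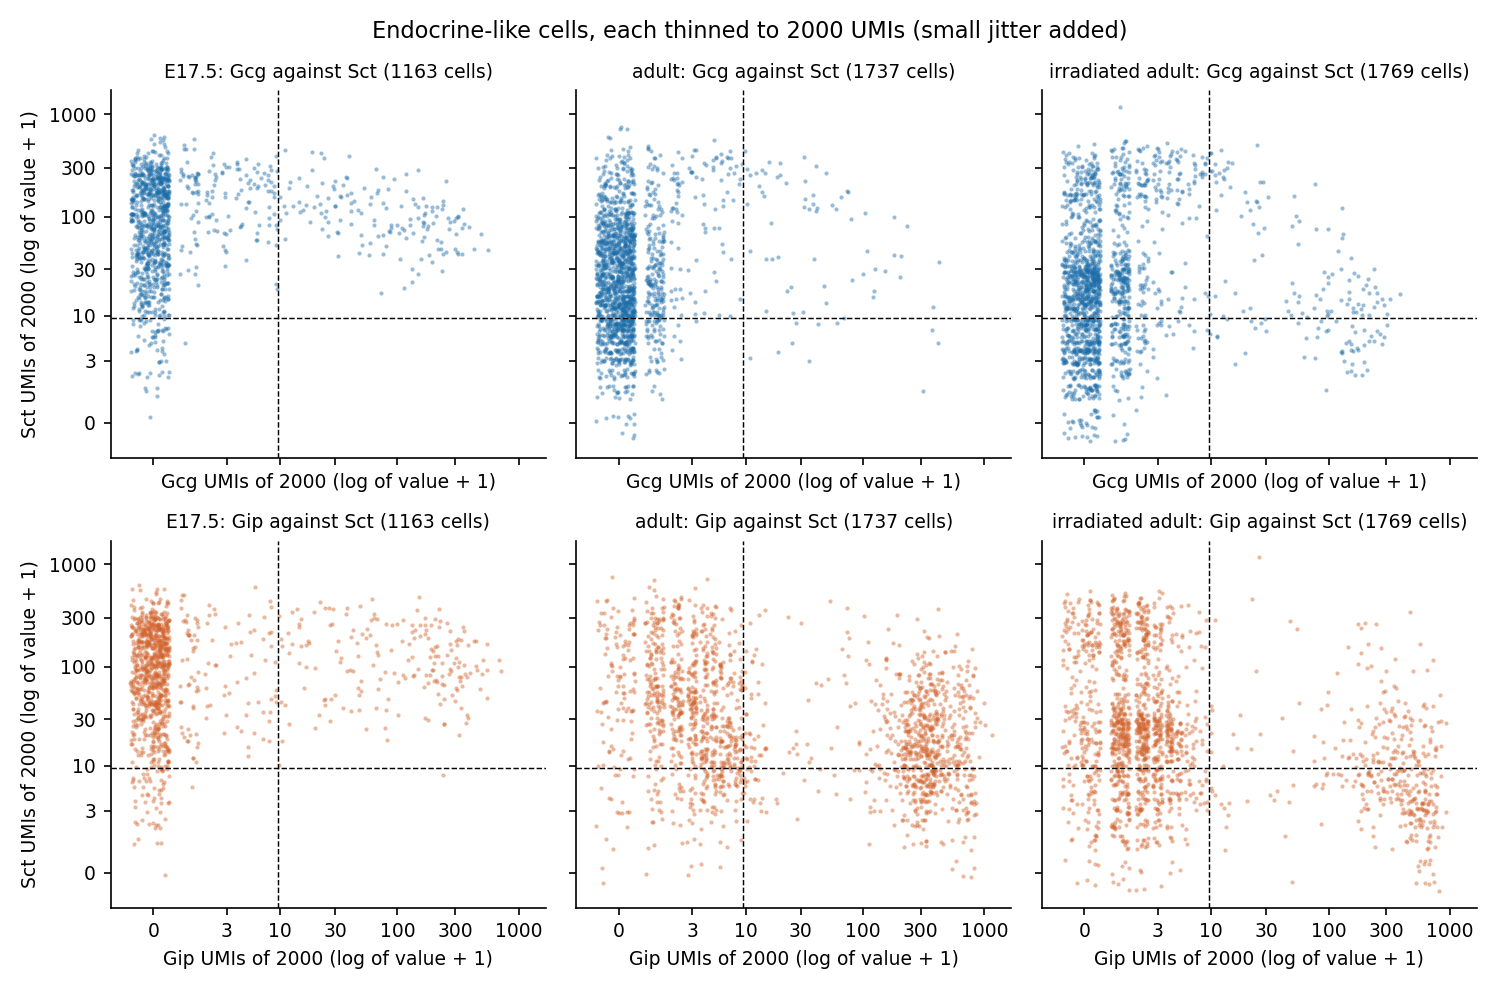
Each point is 1 enteroendocrine-like cell thinned to 2000 UMIs, with Gcg (top) or Gip (bottom) on the horizontal axis and Sct on the vertical axis, both as UMIs of 2000 on a log scale of value + 1 with small jitter; dashed lines mark 10 UMIs. At E17.5 the lower right corners hold 0 and 1 cells, and in the adult and irradiated libraries they hold 11 and 52 Gcg-high cells and 263 and 231 Gip-high cells.

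At E17.5 nearly all cells high for Gcg or for Gip were also high for Sct. Of 151 Gcg-high cells 151 were Sct-high (100%, 97.6 to 100), and of 194 Gip-high cells 193 were (99.5%, 97.2 to 99.99). Among the cells not high for Gcg 94.1% were Sct-high, and among those not high for Gip 93.9%, so the overlap lies close to the Sct share of the whole class. The median Sct content was 98 of 2000 UMIs in Gcg-high cells and 111.5 in Gip-high cells. Gcg alone, or Gcg with Gip and no Sct, was found in 0 of 1163 cells, which allows a share of up to 0.258% (3 counts of the total).

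In the adult the Sct-high share was 84.5% (74.0 to 92.0) of Gcg-high cells against 75.5% of the rest, and 67.5% (64.2 to 70.7) of Gip-high cells against 83.1% of the rest. Median Sct content was 80 in the Gcg-high and 16 in the Gip-high cells. In the irradiated adult it was 66.9% (58.9 to 74.2) of Gcg-high cells against 67.2% of the rest, and 41.7% (36.8 to 46.7) of Gip-high cells against 74.6% of the rest. Median Sct content was 14 and 8. With 30 UMIs as high, the Sct-high share of Gip-high cells was 94.2% at E17.5, 31.5% in the adult library and 14.5% in the irradiated one. At that cut the irradiated Gcg-high cells were also less often Sct-high than the whole class (35.0%), with their shares given in the closing section. The Sct-high share was thus lower in Gip-high than in other endocrine cells in both adult libraries, where the counting intervals of the 2 shares did not overlap, and higher at E17.5. The difference between libraries was not tested.

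Gcg and Gip overlapped less than either did with Sct. Gip-high cells were 13.2% (8.28 to 19.7) of Gcg-high cells at E17.5, against 17.2% of the rest. They were 11.3% (4.99 to 21) against 48.1% in the adult library and 6.37% (3.096 to 11.4) against 23.9% in the irradiated one. Cells high for all 3 numbered 20 of 1163, 6 of 1737 and 8 of 1769. The adult shares move with the definition, and with 3 UMIs as high 39.4% of the adult and 25.7% of the irradiated Gcg-high cells counted as Gip-high, at which level tuft-like cells also carry Gip, as given further on.

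**Figure D3:**
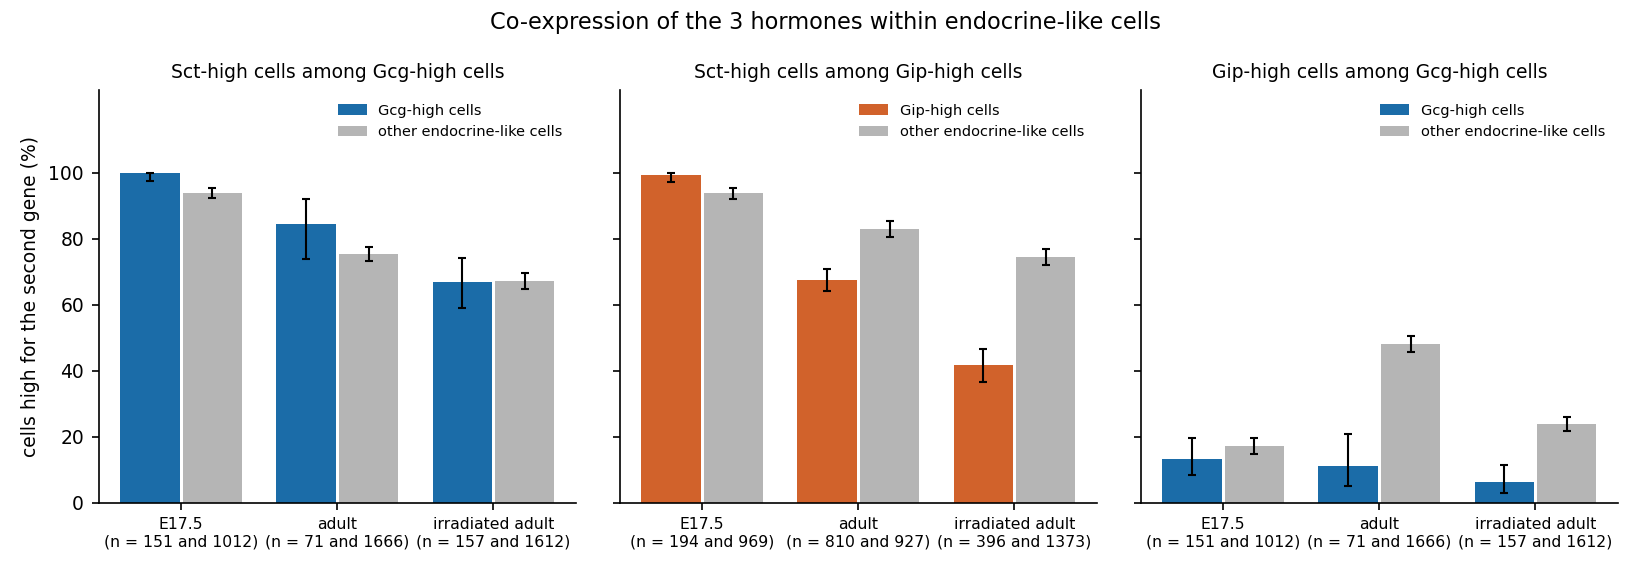
Share of cells (%) that are high (at least 10 of 2000 UMIs) for the second hormone, among cells high for the first (coloured) and among the other enteroendocrine-like cells (grey); bars are exact Clopper-Pearson 95% intervals and n gives the cells of both groups. Gip-high cells reach 99.5% Sct-high at E17.5, 67.5% in the adult library and 41.7% in the irradiated one.

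Described over all cells without a cut, Pearson's r of log1p(UMIs per 10000) between Gip and Sct was 0.13 at E17.5, -0.33 in the adult library and -0.34 in the irradiated one (1196, 2222 and 1890 cells, each from 1 library of uneven depth). Between Gcg and Sct it was 0.13, 0.21 and 0.13, and between Gcg and Gip -0.08, -0.18 and -0.18. The sign for Gip and Sct was positive in the embryo and negative in both adult libraries. Of cells with at least 10 UMIs of the 3 together, Sct made up at least 90% of the sum in 71.3%, 32.0% and 46.4%. Gip did so in 0.543%, 32.9% and 20.2%, and Gcg in 0.181%, 0.302% and 3.82%. Cells in which Gcg did so numbered 2 at E17.5, 5 in the adult library and 59 in the irradiated one. Hormones other than the 3, such as Cck, were not part of this sum.

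The clusters, built without the 3 genes, place these cells among their neighbours. At E17.5 the cluster led by Cck and Pyy (265 cells) held 59025 CPM of Gip, 16714.5 of Gcg and 78542.5 of Sct, and 65.3% of its cells were Gip-high and 20.8% Gcg-high. A cluster led by Ghrl, Cck and the alpha-1-antitrypsin gene Serpina1c (137 cells) held the highest Gcg level of the enteroendocrine-like clusters, at 27578 CPM, with 33.6% Gcg-high, while an islet hormone-led cluster described further on held 34620.5 CPM. The cluster led by Reg4, Chgb and Chga (316 cells) held 54541 CPM of Sct with 20.1 of Gcg and 129 of Gip. In the adult, Gip lay in a pair of clusters that share Isl1, Sphkap and Cnr1 among their leading genes (900 and 156 cells), at 148565 and 291956 CPM, with 99.3% and 96.8% of cells Gip-high, although the larger was shallow at a median of 2320.0 UMIs. Adult Gcg lay mainly in a cluster led by Ghrl, Nts and Cck (154 cells) at 20938 CPM, where 40.6% of cells were Gcg-high and Sct stood at 98615 CPM. In the irradiated adult the 2 clusters with Isl1, Sphkap and Cnr1 among their leading genes held 178488 and 260553 CPM of Gip (302 and 140 cells). A cluster led by Ghrl, Pyy and Cck (170 cells) held 43426 CPM of Gcg with 67.1% Gcg-high, and its Sct level was 9301 CPM. Beside it the cluster led by Pyy, Cck and Scg2 (180 cells) held 4668 CPM of Gcg and 147590.0 of Sct, so Gcg and Sct were highest in different irradiated clusters. In the adult the cluster highest in Gcg shared the top Sct level with a cluster led by Cck, Nts and Scg2 (103 cells, 97992.5 CPM, overlapping intervals), which held 2449.8 CPM of Gcg.

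Within the Gcg-high cells those without high Sct numbered 0 of 151 cells at E17.5, 11 of 71 in the adult library and 52 of 157 in the irradiated one. Those 52 cells held more Gcg, a median of 136.5 of 2000 UMIs against 57 in the 105 with high Sct, at a like depth (14818 and 15595 UMIs). Nts, the neurotensin gene of the distal gut, was higher in the Sct-high ones, at 3082 against 36.7 CPM in the adult library and 1295 against 115 in the irradiated one. Pdx1, a transcription factor of the proximal gut, was lower in them, at 17.2 against 82.6 CPM in the adult (12 and 9 UMIs) and 22.8 against 52.0 after irradiation. Ghrl, the ghrelin gene, was lower too, at 20231 against 85273 and 21531 against 44517 CPM. Pyy differed in direction, at 2782 against 633 CPM in the adult and 4154 against 5064 after irradiation. Etv1, a transcription factor, was similar in both kinds of cell, at 695 against 889.9 CPM in the adult and 658 against 740.2 after irradiation.

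Gip-high cells split on Sct with partly the same genes. Nts was again higher in the Sct-high ones, at 536 against 116 CPM in the adult and 846 against 263 after irradiation. Pdx1 was again lower, at 76.0 against 128 and 78.3 against 124 CPM, while Ghrl differed in direction (2829 against 2292 and 1747 against 2137). Cck, cholecystokinin, was higher with high Sct in both kinds of cell. In Gcg-high cells it measured 152568 against 62484.5 CPM in the adult and 158979 against 125891 after irradiation. In Gip-high cells Cck measured 17229 against 4721 CPM in the adult and 40468 against 6376 after irradiation. Pyy measured 940.0 against 186 and 2110.2 against 58.5 CPM, and the transcription factor Onecut3 41.3 against 7.81 and 38.7 against 5.05 (the last on 7 UMIs). Sst, somatostatin, lay the other way, at 7270 against 18539 and 4525 against 15491 CPM, as did Iapp at 404 against 1178 and 281 against 824. The Gip content itself was 316 against 328 of 2000 UMIs in the adult library and 300 against 447 in the irradiated one.

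The next comparisons set cells high for a hormone against all other enteroendocrine-like cells, on CPM without the UMIs of the 3 hormones. A gene is counted where it passed 2-fold the same way in all 3 libraries, and the cells of a library are not replicates. For Gcg-high cells 0.275% of 9106 genes were higher and 2.19% lower. Etv1 was 1 of 19 transcription factors tested that was higher, at 606 against 236 CPM at E17.5, 721 against 131 in the adult library and 684 against 160 in the irradiated one. Foxa1, Hhex, Lmx1a and Sox4 were lower; Hhex, which marks somatostatin cells, had 1, 1 and 19 UMIs in Gcg-high cells. Of 8 nutrient sensors the fatty acid receptor Ffar1 (203 against 70.4, 482 against 145 and 385 against 150 CPM) and the lipid amide receptor Gpr119 (75.2 against 17.3, 88.1 against 22.9 and 80.4 against 16.6) were higher, and the irritant channel Trpa1 was lower. Pyy, the usual partner hormone of L cells, was higher at 15822 against 4739, 2491 against 493 and 4448 against 453 CPM. Sst, Tph1 and Iapp were lower, with Sst at 9.51 against 15602 CPM at E17.5. Pcsk1, which makes GLP-1, did not pass 2-fold, at 359 against 379, 634 against 585 and 495 against 589 CPM, while Pcsk2 measured 11.2, 0 and 1.33 CPM in Gcg-high cells.

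For Gip-high cells 1.95% of 8790 genes were higher and 2.61% lower. The transcription factors Pax6, Isl1, Rfx6 and Pdx1 (4 of 19) were higher. Rfx6 showed the widest margin of the 4 in both adult libraries, at 119 against 37.2 CPM at E17.5, 431 against 24.6 in the adult library and 375 against 32.8 in the irradiated one. Pdx1 stood at 133 against 32.8, 92.8 against 24.8 and 105 against 24.1 CPM. The sodium glucose transporter Slc5a1, which K cells use to sense sugar, was higher at 45.2 against 7.497, 242 against 34.5 and 243 against 40.9 CPM. The long-chain fatty acid receptor Ffar4 was higher as well (72.7 against 30.3, 61.8 against 19.6 and 75.6 against 24.2), and so was Gpr119. Of 8 other hormones tested, 0 were higher and 4 (Nts, Ghrl, Tac1, Tph1) were lower. Chga was lower in both Gcg-high and Gip-high cells, in the latter at 352 against 3654, 655 against 7292 and 909 against 7909.9 CPM.

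For Sct-high cells 1.17% of 9114 genes were higher and 0.285% lower. Cck was higher at 52849 against 1031 CPM at E17.5, 49729.7 against 5108 in the adult library and 78099.6 against 23774.5 in the irradiated one. Nts was higher at 21218 against 19.8, 3739.6 against 209.5 and 3780.3 against 418 CPM. Onecut3 and the granule gene Scg2 were the other list members that were higher. Sst, Ghrl, Iapp, Hhex and Pcsk2 were lower, with Sst at 4828 against 79073 CPM in the adult. At E17.5 the cells not high for Sct number only 60.

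**Figure D4:**
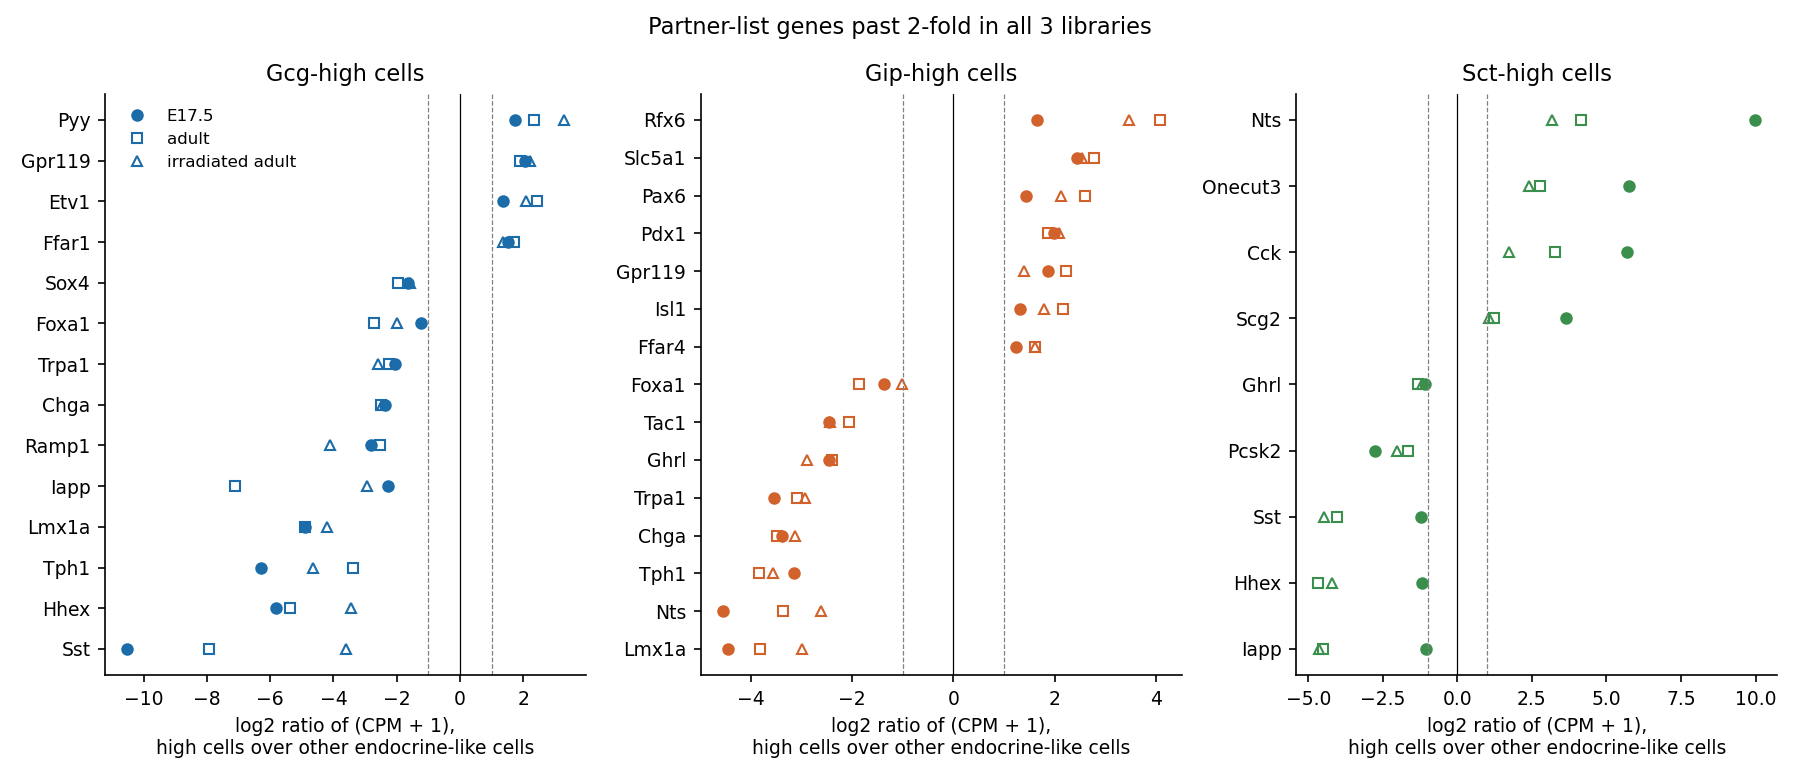
Log2 ratio of (CPM + 1) of cells high for each hormone over the other enteroendocrine-like cells, for the genes of the partner lists that passed 2-fold (dashed lines at -1 and 1) the same way in E17.5 (filled circles), adult (squares) and irradiated adult (triangles). Etv1 and Pyy are higher with Gcg, Rfx6 and Pax6 with Gip, and Cck and Nts with Sct, while Chga is lower with both Gcg and Gip.

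Over the cells of each library, the genes whose level followed a member most closely were ranked by the lowest of their 3 values of r among 8184 genes. The points share their library and its depth, so r is a description. For Gcg these were Etv1 (lowest r 0.45), Fars2 of mitochondrial translation (0.40), Cck (0.39), Scg2 (0.33) and Ffar1 (0.30). For Gip the values were higher, with the fatty acid binding protein Fabp5 (0.73), the cannabinoid receptor Cnr1 (0.62), the adhesion receptor Cd44 (0.53), the kinase Pdk4 (0.46) and Sphkap (0.44). For Sct they were the myosin light chain Myl7 (0.47), the brush border sucrase Sis (0.44), Cck (0.43), and the secretory cell genes Tff3 (0.43) and Agr2 (0.40). Cck was the only gene named for a pair of members, Gcg and Sct.

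At E17.5 a second group of Gcg cells lay outside the gut endocrine class. The islet hormone-led clusters (266 cells, named for Ppy, the pancreatic polypeptide gene, among their leading genes) held 21.1% of the library's Gcg UMIs. Their 26 Gcg-high cells held a median of 149.5 Gcg UMIs of 2000 and 0 of 26 were Sct-high, which allows a share of up to 11.5% (3 counts of the total, as for other counts of 0 here). In these cells the alpha cell genes Irx1 and Irx2 measured 117 and 229.5 CPM, Pcsk2 1689 and the amino acid transporter Slc38a5 2027. In the 151 gut endocrine Gcg-high cells Irx1 had 0 UMIs, and Irx2 measured 1.51, Pcsk2 9.81 and Slc38a5 383 CPM. The gut genes Cdx1, Cdx2 and Cdh17 had 0 UMIs in the 26 cells and 46.8, 208 and 417 CPM in the 151, while the other two of the gut list were lower but not at 0, with Lgals4 at 225 against 1189 CPM and Vil1 at 8.66 (2 UMIs) against 127. Pcsk1 was 117 against 313 CPM, Cck 325 against 66822 and Sct 351 against 59426. A pancreatic acinar-like class of 533 cells and an islet beta-like class of 137 cells were present in the same library. A further 10 Gcg-high cells were spread over other classes, 9 of them in general epithelial-like clusters. The cluster of that class with Neurog3, the endocrine progenitor factor, and Lgr5 among its leading genes (76 cells) held 4129 CPM of Gcg, 1270.0 of Gip and 2665 of Sct.

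At E12.5 Gcg came from very few cells. Just 8 of 4050 cells held at least 10 Gcg UMIs, with 1696, 562, 490, 157, 141, 109, 24 and 10, and together they held 98.1% of all Gcg UMIs of the library. All lay in 1 unnamed cluster of 144 cells led by Ttr and Rbp4, whose median depth was 1030.5 UMIs against 17535.5 in the 8 cells. Across the 8 cells Slc38a5 measured 11658 CPM, Ttr 8278, Pyy 11265, Irx2 279.7 and Pcsk2 797, against 4.09, 265, 17.4, 15.9 and 0.475 in all other cells. Gc, of the same alpha cell list, was not higher in them, at 5.95 CPM (1 UMI) against 7.89. Cdx2 measured 17.9 CPM in them (3 UMIs) against 305 elsewhere. Ins1 stood at 1291 CPM, from 2 of the 8 cells. Without the 8 cells Gcg was 0.767 CPM, with at most 2 UMIs in any cell, so the E12.5 level of Gcg rests on them.

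Sct was spread over many more cells at E12.5. It was found at low counts in 1476 of 4050 cells (36.4%), and the 385 richest cells were needed to reach 50% of its UMIs, where Gcg needed 1 cell. Its level was 26.4 CPM (24.6 to 28.2) in the general epithelial-like cells and 3.25 CPM (0.0823 to 18.1) in the 37 mesenchymal-like cells, the last from 1 UMI. After thinning 5.29% of cells held an Sct UMI and 0 of 3479 were high, which allows a share of up to 0.0862%. Sct was also highest where Gcg was: the cluster of the 8 cells held 417 CPM of Sct against 3.25 to 36.96 in the other E12.5 clusters. All 8 cells held Sct, at 1029.5 CPM together (173 UMIs) against 27.8 in the rest. Gip was all but missing at this stage, with 31 UMIs in 4 cells, 19 of them in 1 cell.

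Cells outside the endocrine classes also carried hormone UMIs. In droplet libraries RNA free in the suspension is counted along with that of the cell, and cells that should lack these hormones give the level to set beside the endocrine one. At E17.5 the pancreatic acinar-like cells held 10.2 CPM of Gcg, 15.7 of Gip and 64.8 of Sct, and the mesenchymal-like cells 7.89, 21.05 and 81.6. The enteroendocrine-like cells exceeded the acinar-like cells 872-fold, 964-fold and 1060.3-fold. These low levels rest on the removal of doublets: with the putative doublets kept, the acinar-like cells held 85.3, 83.4 and 808 CPM, and Sct in the mesenchymal-like cells was 3872 CPM. In the adult the tuft-like cells held 61.8, 1708 and 1844 CPM, and endocrine cells exceeded them 51.8-fold for Gcg, 43.5-fold for Gip and 23.0-fold for Sct. In the irradiated adult tuft-like cells held 234, 1137 and 2876 CPM, with 30.2-fold, 31.7-fold and 14.2-fold.

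For single cells this means that presence alone says little in the adult libraries. After thinning, 92.9% of adult tuft-like cells held a Gip UMI and 95.4% an Sct UMI, beside 92.7% and 99.3% of enteroendocrine-like cells, at median depths of 4112.5 and 3191 UMIs. Before thinning the tuft-like shares were 99.9% and 100%. The share of adult enteroendocrine-like cells with any Gip UMI is therefore no higher than that of the tuft-like cells. It was lower in the adult Paneth-like (61.6%), stem-like (66.1%) and enterocyte-like cells (54.7%), and the cause of this difference was not tested. With at least 10 UMIs, 4.11% of tuft-like cells were Gip-high and 3.11% Sct-high, against 46.6% and 75.8% of endocrine cells, and 0 of 901 were Gcg-high, which allows up to 0.333%. In the irradiated adult 0.851%, 0.426% and 2.55% of tuft-like cells were high for Gcg, Gip and Sct.

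The balance of the 3 genes in each class was set beside that of its library. Of the hormone UMIs in E17.5 acinar-like cells 11.3% were Gcg, 17.3% Gip and 71.4% Sct, beside 12.9%, 15.7% and 71.4% in the whole library. Adult Paneth-like cells had 1.05%, 65.2% and 33.7%, beside 2.89%, 62.0% and 35.1%, and irradiated Paneth-like cells 9.44%, 39.5% and 51.0%, beside 8.31%, 41.8% and 49.9%. The make-up of the acinar-like cells had intervals that include the library values. The adult Paneth-like cells lay below their library for Gcg (0.696% to 1.53%) and above it for Gip (63.3% to 67.1%). The irradiated Paneth-like cells lay above theirs for Gcg (8.93% to 9.96%) and Sct (50.2% to 51.9%) and below it for Gip (38.7% to 40.4%). The irradiated differences were less than 3 percentage points for each gene. The adult Paneth-like levels (7.63, 472 and 244 CPM) moved to 25.5, 1603 and 1092 with doublets kept, and by more than 2-fold at other clustering resolutions. Other classes lay farther from their library, and the cause was not tested. E17.5 goblet-like cells had 98.0% Sct (97.7 to 98.4) with 1273 CPM of Sct against 64.8 in the acinar-like cells, while their Gcg was 19.6 and their Gip 5.79 CPM. After thinning 74.6% of the goblet-like cells held an Sct UMI against 14.0% of the acinar-like cells, and 5.33% were high. Irradiated goblet-like cells also leaned to Sct, with 71.4%, and tuft-like cells did so in both adult libraries with 51.0% and 67.7%. Adult enterocyte-like cells leaned to Gip, with 83.2% and 11904 CPM, and 12 of their 53 thinned cells were Gip-high. The adult stem-like cells held 708 CPM of Gcg, 754 of Gip and 753 of Sct, but the class pools 2 unlike clusters. The shallow one (138 cells, median 1865.5 UMIs) held 198 CPM of Gcg, 8218 of Gip and 9689.9 of Sct, and the deep one (129 cells, median 43960 UMIs) held 733, 391 and 317. Of the 44 Gip-high cells of the class 40 lay in the shallow cluster, and of the 40 Sct-high cells 38. E17.5 islet beta-like cells leaned to Gip as well, with 44.2% of 310 UMIs.

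**Figure D5:**
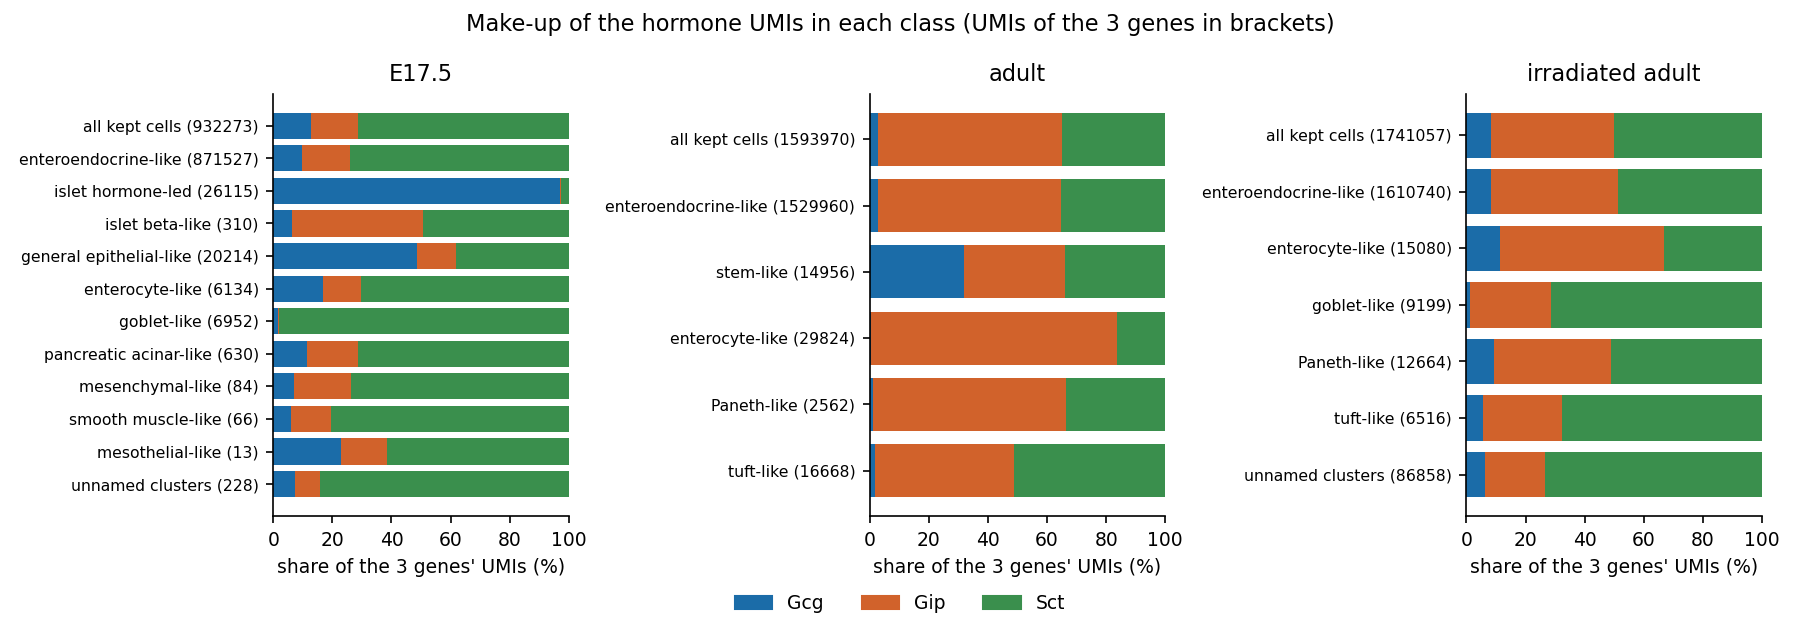
Make-up of the UMIs of Gcg, Gip and Sct (%) in each class of the E17.5, adult and irradiated adult libraries, with the number of UMIs of the 3 genes in brackets. Pancreatic acinar-like cells show a make-up close to their library (71.4% Sct in both), while E17.5 goblet-like cells are 98.0% Sct and adult enterocyte-like cells 83.2% Gip.

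The other hormones of the family, and most receptors, were scarce in these cells. Of the related hormones, Vip had 0 UMIs in every library, Ghrh 11 UMIs at E17.5 only, and Adcyap1 9, 5, 2 and 17 UMIs. Vipr1, a receptor for VIP, measured 3.50, 12.01, 13.04 and 6.27 CPM in the 4 libraries and was lower in endocrine than in enterocyte-like cells (0.213 CPM at E17.5 in enteroendocrine-like against 14.2 in enterocyte-like cells, and 2.66 against 37.9 in the adult). Gipr measured 26.3 CPM in E17.5 enteroendocrine-like against 0.666 in enterocyte-like cells, and it measured 3.92 CPM in that class of the adult and 2.50 in that of the irradiated library. It was lower in Gip-high than in other endocrine cells in each library (17 UMIs against 226 at E17.5, in 194 and 969 cells), though past 2-fold in that library only. Glp1r measured 0.426, 1.49 and 2.14 CPM in the endocrine cells, on 4, 19 and 41 UMIs. Glp2r had 4 UMIs at E17.5 and 0 elsewhere, and the secretin receptor Sctr 9, 14, 0 and 0. Ramp1, a partner protein of class B receptors, measured 33.4, 31.7 and 31.01 CPM in the endocrine cells and was lower in Gcg-high cells in all 3 libraries, with 6, 5 and 3 UMIs there against 308, 397 and 587 in the rest. In Paneth-like cells Ramp1 was higher than in the endocrine cells, at 82.2 CPM in the adult and 105 in the irradiated library. It was lower in tuft-like (1.52 and 2.61) and enterocyte-like cells (0 and 4.30). Dpp4 was present throughout, at 85.5, 81.8, 72.9 and 65.1 CPM in the 4 libraries.

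Reporter RNA was scarce in hormone cells and in the other cells it was measured in. In the irradiated adult eGFP measured 15.7 CPM (11.2 to 21.5) in Gcg-high, 18.4 (13.9 to 23.8) in Gip-high and 16.4 (14.3 to 18.8) in Sct-high cells. It measured 16.4 CPM (12.3 to 21.3) in enteroendocrine-like cells high for none of the 3. In tuft-like, enterocyte-like and Paneth-like cells it measured 14.8, 9.37 and 2.71 CPM. In the adult the values for Gcg-high, Gip-high and Sct-high cells were 1.10, 1.69 and 1.89 CPM, on 1, 7 and 18 UMIs. Beside them stood 1.90 CPM (2 UMIs) in cells high for none and 3.56 in tuft-like cells. At E17.5 the 3 hormone-high groups had 3.77, 1.77 and 2.24 CPM, beside 2.50 (1 UMI) in cells high for none and 0.669 in enterocyte-like cells. Bmi1 itself measured 9.06, 23.0 and 21.3 CPM at E17.5, 13.2, 13.5 and 14.5 in the adult and 15.7, 18.4 and 20.7 in the irradiated adult, and within each adult library the intervals of the 3 overlapped. In enteroendocrine-like cells high for none of the 3 it measured 22.5, 30.4 (20.8 to 42.9) and 22.6 CPM in these libraries.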

How the data were processed

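UMI counts per gene and cell barcode were made by the authors from 10x 3′ version 3 libraries and are used as deposited, with 1 library per group. Cell Ranger 3.1.0 and the mouse build mm10 are named per the submitters' processing notes. The deposited barcodes held at least 500 UMIs each, and library totals were 90674425 (E12.5), 77677622 (E17.5), 38648331 (adult) and 50761353 (irradiated adult) UMIs. Median depth in kept cells was 18098, 10994, 3606 and 8547 UMIs, and pairs of libraries shared at most 6 kept barcodes.

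Doublets were removed by Scrublet score at a rate of 0.8% per 1000 barcodes (176, 193, 191 and 153 cells). Each library was clustered without the 3 hormone genes (scanpy 1.11.5, 2000 variable genes, 30 principal components, 20 neighbours, Leiden resolution 1). A cluster took a name from 16 marker lists where at least 3 markers were present. The naming thresholds, and the counting of other hormones as endocrine leading genes, were set after the clusters had been seen. A cluster with the endocrine name but Ins1, Ins2 or Ppy among its top 10 genes was called islet hormone-led. E12.5 clusters were left unnamed for 2914 of 4050 cells.

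Levels are summed UMIs per 1000000. Ratios between libraries are log2 of (CPM + 1), and a gene counts as past 2-fold only with at least 50 UMIs. Intervals are 95% and cover counting error only. The partner and marker lists and the 3 genes were chosen with earlier results of these data known. Genes named beside the 3 are those of the partner lists, those that lead the clusters described, and for each hormone the 5 genes with the highest lowest r over 3 libraries, among genes with a UMI in at least 5% of endocrine-like cells of each. Alternatives covered the cell filter, doublets, resolution, thinning depth, the definition of high, the pseudocount and edgeR 4.0.16 TMM factors. The folds and the thinning were tested on simulated data. Gene positions are from GENCODE M21, which matched 99.6% of the feature IDs, and promoters from RefSeq (GRCm38.p6). Protein sequences were not used here. Values of 2 genes of the partner lists are not reported here.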

Additional observations from a re-analysis of the deposited data

Results flagged for a closer look

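The share of Sct-high cells among Gip-high cells, minus the share among the other endocrine-like cells, was 5.57 percentage points at E17.5, -15.5 in the adult library and -32.9 in the irradiated one. The same difference for Gcg-high cells was 5.93, 9.06 and -0.37 percentage points. Both were singled out because the direction was not the same in all 3 libraries. With 1 library per group the difference between libraries was not tested. Depth moves with the groups, and its part in the result was not tested: the median was 7690.5, 3191 and 9565 UMIs per endocrine-like cell before thinning.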

How the results depend on the processing

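With 1 library per group none of these values has a replicate, and the adult library is the shallowest, at a median of 3606 UMIs per cell. No paired analysis was possible because each group is a single library. Of 144 recomputed log2 ratios 4 changed sign and 87 left the counting interval of the reported value, which is narrow, and of 99 recomputed co-expression shares 18 left theirs. The cause was not tested except where the alternative itself sets the value, as the pseudocount does for Gip at E12.5.

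Changes of sign were seen with the stricter cell filter (1000 genes, 10% mitochondrial UMIs) in all kept cells, for Gcg in adult over E17.5 (0.57) and Sct in irradiated over adult (-0.10), and for Sct in irradiated over adult endocrine-like cells with every deposited barcode (0.0706) and as a mean over the CPM of single cells (0.23).

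For E17.5 over E12.5, Gcg gave 5.29 with the stricter filter, 5.52 with doublets kept, 6.43 as a mean over cells, 5.08 with a pseudocount of 10 and 5.52 with TMM factors. Gip gave 11.16 as a mean over cells, 12.05 with a pseudocount of 0.1 and 7.61 with 10. Sct gave 9.17 as a mean over cells, 7.85 with a pseudocount of 10 and 8.38 with TMM factors.

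For the endocrine-like cells, values follow in the order Gcg, Gip, Sct. Adult over E17.5 gave -1.51, 2.25 and -0.74 with every barcode, -1.07, 2.45 and -0.35 with the stricter filter, -1.36, 2.44 and -0.57 with doublets kept, and -2.48, 2.46 and -1.25 as a mean over cells. It gave -1.43, 2.34 and -0.65 on CPM without the 3 genes, -1.55, 2.22 and -0.77 with TMM factors, -1.29, 2.77 and -0.18 with cells taken by marker UMIs, -1.38, 2.37 and -0.62 at resolution 2, and -1.81, 1.64 and -0.36 with hormones not counted among leading genes, an alternative chosen after seeing the data. Irradiated over adult gave 1.21, -0.97 and 0.0706 with every barcode, 0.93, -1.27 and -0.22 with the stricter filter, and 1.71, -0.77 and 0.23 as a mean over cells. It gave 1.09, -1.10 and -0.11 on CPM without the 3 genes, 1.13, -1.06 and -0.0719 with TMM factors, and 0.73, -1.32 and -0.27 with cells taken by marker UMIs. Gip gave -1.09 with doublets kept, and Gip and Sct gave -1.05 and -0.0457 at resolution 2.

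The co-expression shares moved most with the definition of high. At 3 UMIs of 2000 the Sct-high share of Gcg-high cells was 99.2% in the adult library and 97.1% in the irradiated one, and at 30 UMIs it was 95.8% at E17.5, 60.5% in the adult library and 14.95% in the irradiated one. Of all enteroendocrine-like cells 82.1%, 45.7% and 35.0% were Sct-high at 30 UMIs in these 3 libraries. The Sct-high share of Gip-high cells at 3 UMIs was 100%, 95.7% and 89.4% in the order E17.5, adult, irradiated adult, and at 30 UMIs 94.2%, 31.5% and 14.5%. The Gip-high share of Gcg-high cells at 3 UMIs was 39.4% in the adult library and 25.7% in the irradiated one. Over all kept E17.5 cells 84.5% of Gcg-high cells were Sct-high, with every barcode 100% of E17.5 Gip-high cells were, and with hormones not counted 21.3% of E17.5 Gcg-high cells were Gip-high. In the adult the Sct-high share of Gip-high cells was 73.6% with the stricter filter and 62.9% when thinned to 4000 UMIs with 20 as high.

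The E12.5 level of Gcg was 0.767 CPM without the 8 richest cells, a setting also chosen after seeing the data.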
